A study of Homo sapiens with 4 samples.

Results

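The tetraspanin genes CD9, CD63, CD81, CD82, CD151, TSPAN3, TSPAN4, TSPAN7 and TSPAN13 were followed in SH-SY5Y cells after knockdown of LSD1. SH-SY5Y is an established human neuroblastoma line of neuronal character, and LSD1 is a histone lysine demethylase encoded by KDM1A. The cells had been transfected with an siRNA against LSD1 (siLSD1) or with a control siRNA (siControl), in 2 separate transfections per siRNA, and each transfection gave 1 array. All 4 arrays come from the same line, and no source used here gives the siRNA sequences, the dose or the time between transfection and harvest. Total RNA was hybridized to Affymetrix arrays. A probe set was taken for a gene when the platform annotation gave that gene's symbol and no other, and every such probe set was kept. This gave 17 probe sets for the 9 genes, out of 41091 probe sets for 19775 genes. The set was chosen by the siLSD1 and siControl signals of CD9, which were higher on the siLSD1 arrays, and the other genes were added as its family. The siLSD1 to siControl differences of these 9 genes are therefore given as a description, with no test.

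Tetraspanins are small proteins that pass the membrane several times and expose a short and a long loop outside the cell. They bind integrins, immunoglobulin-type proteins, proteases and each other, and so organize patches of the plasma membrane and of endosomes. CD9, CD63 and CD81 are the usual marker proteins of extracellular vesicles, CD82 and CD9 are known as suppressors of metastasis, and TSPAN7 is a tetraspanin of neurons.

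LSD1 acts on chromatin at gene promoters and enhancers, but the arrays measured RNA only, and no occupancy was measured here. The bases upstream of a listed transcription start are shown for CD9 and TSPAN13. These are the members with a probe set that passed the filter and had its lowest value on siControl replicate 1. Which start gave the measured RNA was not tested. The sequences are from RefSeq (GRCh38.p14, plus strand, 5′ to 3′) and cover the 250 bases before a start, which for CD9 is the most upstream of the 4 listed starts, at chr12:6199696-6199945, and for TSPAN13 the single listed start, at chr7:16753505-16753754. Capitals mark GC boxes (GGGCGG or its complement CCGCCC) and E-boxes of the type bound by SNAI factors (CAGGTG or its complement CACCTG). These patterns do not overlap in the sequences shown.
CD9: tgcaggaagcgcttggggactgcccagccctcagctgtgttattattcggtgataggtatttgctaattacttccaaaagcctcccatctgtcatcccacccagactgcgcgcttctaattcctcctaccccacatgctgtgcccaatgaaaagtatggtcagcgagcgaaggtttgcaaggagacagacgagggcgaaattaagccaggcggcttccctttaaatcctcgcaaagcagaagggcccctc
TSPAN13: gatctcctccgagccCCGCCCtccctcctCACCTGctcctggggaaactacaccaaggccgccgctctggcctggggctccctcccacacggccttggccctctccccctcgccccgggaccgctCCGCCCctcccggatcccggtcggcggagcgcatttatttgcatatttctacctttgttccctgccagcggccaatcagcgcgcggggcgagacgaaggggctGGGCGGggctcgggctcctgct
The TSPAN13 stretch held 3 GC boxes and 1 E-box. The CD9 stretch held neither pattern, while the stretches before the CD9 starts that follow it downstream held 6, 3 and 0 GC boxes and 0, 1 and 0 E-boxes. Starts were listed for 5 of the 9 genes (CD9, CD63, CD82, TSPAN4 and TSPAN13), with 19 stretches of 250 bases in all. At least 1 GC box was present in 13 of the 19, against 42.6% of 35116 such stretches over all listed genes, and an E-box in 5 of the 19, against 17.5%. The stretches of 1 gene overlap in part and are not independent. The share of G and C in the 19 ran from 44.8% to 84.0%. In most of them it was above 58.0%, the median of all stretches. A GC box is made of G and C only, and the counts were not matched for this share. TATAAA or its complement was found in 0 of the 19, against 10.7%. A match of letters is not evidence that a factor binds there.

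All levels below are log2 signals after quantile normalization, and all differences are siLSD1 minus siControl on the log2 scale. KDM1A, the siRNA target, had signals of 9.79 and 9.78 in siControl against 8.40 and 8.54 in siLSD1, a 2.50-fold lower level. siControl replicate 1 stood apart. Its probe sets lay a median of 0.29 from the middle of the other arrays, against 0.20 to 0.23 for the other 3 arrays. The array with the strongest signal difference along transcripts was siLSD1 replicate 2. Its ACTB control probes at the 3′ end exceeded those at the 5′ end by 1.16, against 0.54 to 0.71 on the other arrays, and its ribosomal RNA control signal was 11.35, against 7.14 to 7.46. Noradrenergic neuroblastoma markers were bright, with STMN2, GATA3, ISL1 and ELAVL4 above 11 on every array, and 11 of the 12 genes on that list with a probe set passed the filter on dim probe sets. No probe set of the 3 Schwann and glial or the 4 blood cell marker genes passed it. All 5 fibroblast genes did, with COL3A1 at 8.81 and 8.31 in siControl and 8.84 and 9.10 in siLSD1. Of 11 fibroblast probe sets that passed the filter 9 had a higher mean in siLSD1, against 49.4% of all probe sets tested, and the median difference was 0.32. Both siLSD1 arrays were above both siControl arrays for 5 of the 11, against 16.1% of all, and below for 0, against 16.1%. LUM (201744_s_at), COL1A1 (1556499_s_at) and DCN (201893_x_at) had overlapping groups, and the DCN difference was -0.13. Over all their probe sets, passing or not, the fibroblast genes had a mean level of 4.35 and 3.53 in siControl and of 4.22 and 4.36 in siLSD1, with siControl replicate 2 the lowest. Whether this moves with the tetraspanin values was not tested.

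CD9, which joins membrane patches with integrins and takes part in cell fusion and adhesion, had the widest difference of the 9 genes among the probe sets bright enough to be compared. It was the gene by which the set was picked. Its brightest probe set, 201005_at, measured 4.11 in siControl replicate 1, 6.97 in siControl replicate 2, and 7.89 and 7.95 in the siLSD1 replicates. Both siLSD1 arrays were thus above both siControl arrays, but the control arrays were far apart, and siControl replicate 1 was low against the other 3. Means of 5.54 ± 2.02 for siControl and 7.92 ± 0.04 for siLSD1 (SD, n = 2) differed by 2.38, or 5.20-fold. The gap between the control arrays, 2.85, was larger than the difference between the groups, while the siLSD1 arrays lay 0.05 apart. Without siControl replicate 1 the difference was 0.95, or 1.93-fold, against the remaining control array alone, and without siControl replicate 2 it was 3.81. In arrays of whole cell cultures, a change in the number of cells that carry CD9 and a change in the CD9 RNA per cell cannot be told apart.

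**Figure D1:**
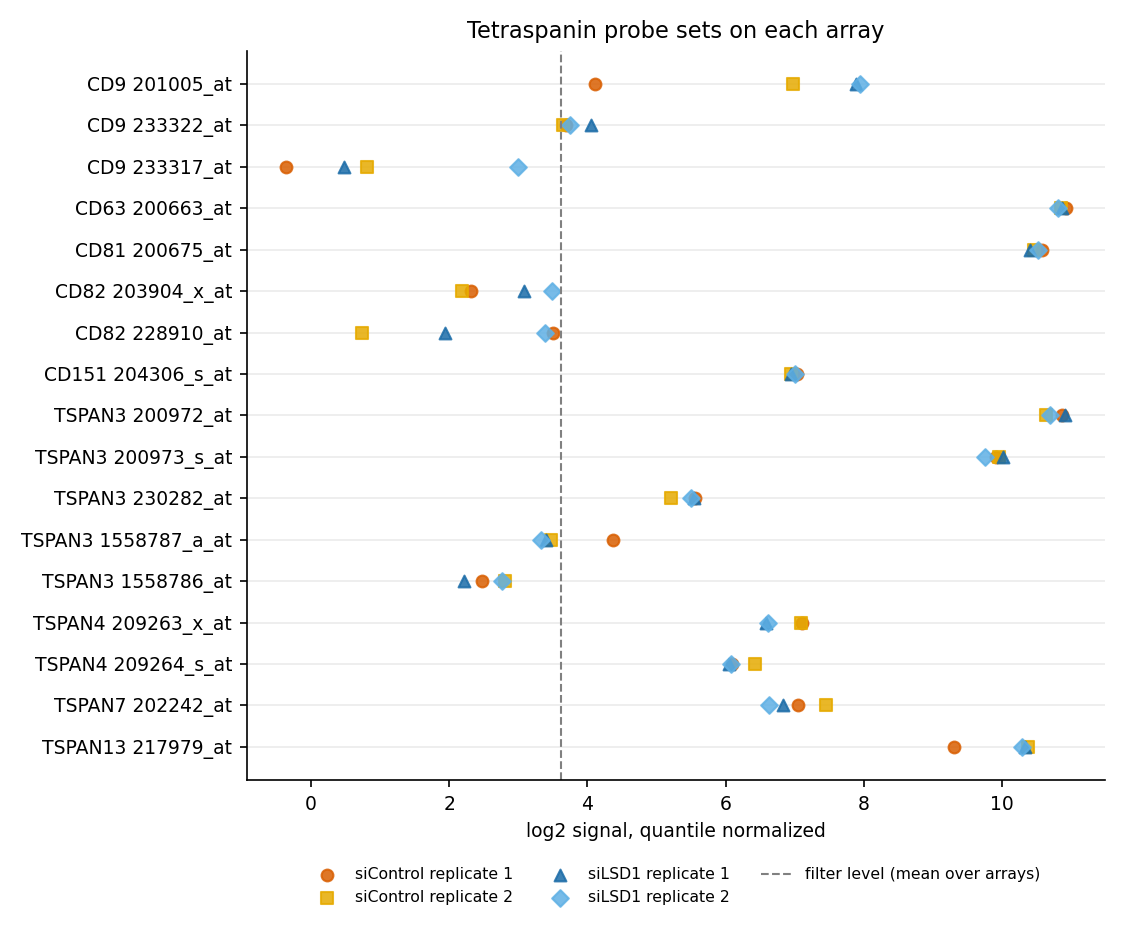
Log2 signal (horizontal axis, quantile normalized) of the 17 tetraspanin probe sets on each of the 4 arrays; points are single arrays and the dashed line is the filter level of 3.62 for the mean over arrays. CD9 201005_at spreads from 4.11 on siControl replicate 1 to 7.95, and CD63, CD81 and CD151 stay within narrow ranges.

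The position of CD9 among all probe sets depended on siControl replicate 1. With all 4 arrays its difference ranked 5 of the 24655 probe sets that passed the filter, and 1.73% of them were at least 2-fold higher. Without siControl replicate 1 its difference ranked 374, and 1.52% of the probe sets were at least as high as CD9. As CD9 was picked for being higher on the siLSD1 arrays, these ranks follow in part from the pick and are no result. On siControl replicate 1, CD9 lay 3.49 below the mean of the other arrays, and 0.10% of the probe sets were as low or lower there. A value that was the lowest by at least 2 on the log2 scale was more frequent on siControl replicate 1, with 144 probe sets, than on siControl replicate 2 (19), siLSD1 replicate 1 (30) and siLSD1 replicate 2 (36). Values that were the highest by that margin numbered 9 on siControl replicate 1. The spiked BioB control probes were at 5.99 on siControl replicate 1 and at 6.06 on siLSD1 replicate 1, against 6.80 and 6.83 on the other arrays. For ACTB the 3′ signal exceeded the 5′ signal by 0.70 and 0.54 in siControl and by 0.71 and 1.16 in siLSD1. The part of either in the CD9 values was not tested.

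**Figure D2:**
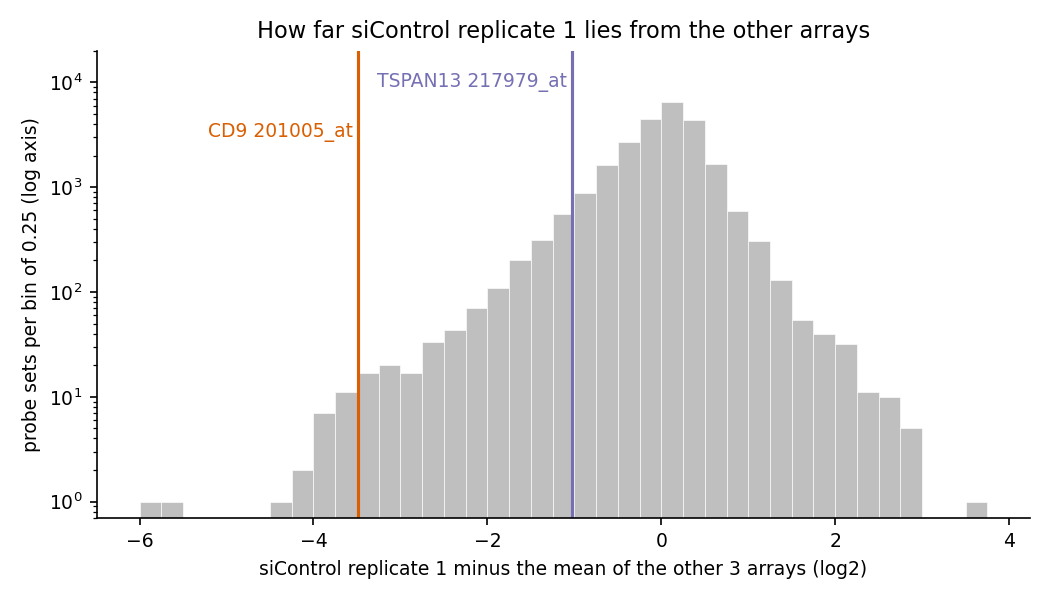
Number of probe sets (vertical axis, logarithmic) by the distance of siControl replicate 1 from the mean of the other 3 arrays (horizontal axis, log2), over the 24655 probe sets that passed the filter. Vertical lines mark CD9 201005_at at -3.49 and TSPAN13 217979_at at -1.03, and the low tail is longer than the high tail.

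The other CD9 probe sets were dim. Probe set 233322_at was at 3.69 and 3.64 in siControl and at 4.05 and 3.74 in siLSD1, just above the filter level. Its difference was 0.23, but on the deposited scale it was 0.03 and the groups overlapped. Probe set 233317_at was below the filter level, at -0.36 and 0.81 in siControl and at 0.48 and 2.999 in siLSD1, and its groups overlapped. CD9 as the mean of its 3 probe sets had a difference of 1.37.

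The genes whose values on the 4 arrays ran most like CD9 201005_at were then listed. Likeness was the root mean square distance between values centred on each gene's mean, over 4 arrays and 12876 genes, and 19 genes lay within 0.5. The nearest was FER1L4 (distance 0.24), at 1.42 and 3.82 in siControl and 4.91 and 4.59 in siLSD1. CUEDC1 (0.25) was at 2.48 and 5.35, then 6.08 and 5.72. TBL3, a nucleolar protein of ribosome assembly (0.26), was at 2.32 and 5.54, then 5.80 and 5.93. In all 3 the siControl replicate 1 value was below the filter level, whereas that of CD9 was above it, and FER1L4, with a siControl mean of 2.62, passed the filter only through its siLSD1 values. The low siControl replicate 1 value of these genes follows from how they were picked and is no result.

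TSPAN13, a tetraspanin of the plasma membrane, also had its lowest value on siControl replicate 1. Its single probe set, 217979_at, was at 9.31 and 10.38 in siControl and at 10.34 and 10.28 in siLSD1. The siLSD1 arrays and siControl replicate 2 thus lay close together, and the groups overlapped. The means were 9.84 ± 0.76 and 10.31 ± 0.04 (SD, n = 2), a difference of 0.47 that turned to -0.07 without siControl replicate 1.

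CD63 and CD81, which accompany CD9 on extracellular vesicles, differed between the groups by less than their control arrays did from each other. CD63, a tetraspanin of late endosomes and lysosomes, was at 10.92 and 10.85 in siControl and at 10.86 and 10.80 in siLSD1 (200663_at). Its difference of -0.05 was smaller than the gap between the control arrays, 0.07. CD81, a partner of CD9 that is also the B cell co-receptor and a receptor of hepatitis C virus, was at 10.58 and 10.46 in siControl and at 10.40 and 10.51 in siLSD1 (200675_at). The difference of -0.06 lay within the gaps of 0.12 and 0.11 between arrays of a group. For both genes the groups overlapped.

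CD151, which binds laminin receptors of the integrin family, had a range of 0.09 over the 4 arrays. It was at 7.03 and 6.95 in siControl and at 6.94 and 7.01 in siLSD1 (204306_s_at), with overlapping groups and a difference of -0.02. CD82, named KAI1 as a suppressor of metastasis, was not measured above the filter level by either of its probe sets. Probe set 203904_x_at was at 2.32 and 2.19 in siControl and at 3.08 and 3.48 in siLSD1, and 228910_at at 3.51 and 0.74, then 1.94 and 3.39. The first had groups that did not overlap, while in the second siControl replicate 1 was the highest of the 4 arrays. At such levels the size of a difference is uncertain, and the probes of 203904_x_at are of the type that can bind other sequences.

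TSPAN3 was represented by 5 probe sets, of which 4 passed the filter, and their differences did not share a sign. The brightest, 200972_at, was at 10.87 and 10.63 in siControl and at 10.91 and 10.70 in siLSD1, with a difference of 0.05. The next, 200973_s_at, was at 9.91 and 9.96, then 10.01 and 9.76, with a difference of -0.05. Both had overlapping groups. Probe set 230282_at had a difference of 0.14 that came from siControl replicate 2, at 5.21 against 5.50 to 5.55 on the other arrays. The dim 1558787_a_at was at 4.38 on siControl replicate 1 and between 3.33 and 3.48 on the others, and its difference of -0.56 was -0.11 without that array. The fifth, 1558786_at, lay below the filter level, between 2.21 and 2.81.

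TSPAN4 was, after quantile normalization, the member with the closest replicates and a separation between the groups. TSPAN4 is a tetraspanin of migrasomes, the vesicles left on the retraction fibres of moving cells. Its probe set 209263_x_at was at 7.10 and 7.09 in siControl and at 6.59 and 6.61 in siLSD1. Both siLSD1 arrays were below both siControl arrays. The means of 7.10 ± 0.0092 and 6.60 ± 0.02 (SD, n = 2) differed by -0.50, a 1.41-fold lower level, against gaps of 0.01 and 0.03 within the groups. Whichever array was left out, the difference stayed between -0.51 and -0.48, and of the 13 member probe sets that passed the filter this was the only one that kept its sign and stayed within 1.5 times of its value. The second probe set, 209264_s_at, was at 6.09 and 6.43, then 6.05 and 6.07. It was lower too, by a difference of -0.20, but siControl replicate 1 was close to the siLSD1 arrays. Without siControl replicate 2 the difference was -0.03. On the deposited scale its groups overlapped, and under median centring its difference was -0.00024. Both probe sets are of types whose probes can be shared with other sequences.

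TSPAN7, a tetraspanin of neurons that takes part in the trafficking of glutamate receptors, was lower as well. Its probe set 202242_at was at 7.05 and 7.45 in siControl and at 6.83 and 6.63 in siLSD1. The groups did not overlap, and the difference of -0.52, a 1.44-fold lower level, exceeded the gaps of 0.40 and 0.20 within the groups. It ranged from -0.72 without siControl replicate 1 to -0.32 without siControl replicate 2. On the deposited scale the difference was -0.47, and the groups did not overlap. Under median centring it was -0.29, and siLSD1 replicate 1 lay above siControl replicate 1.

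**Figure D3:**
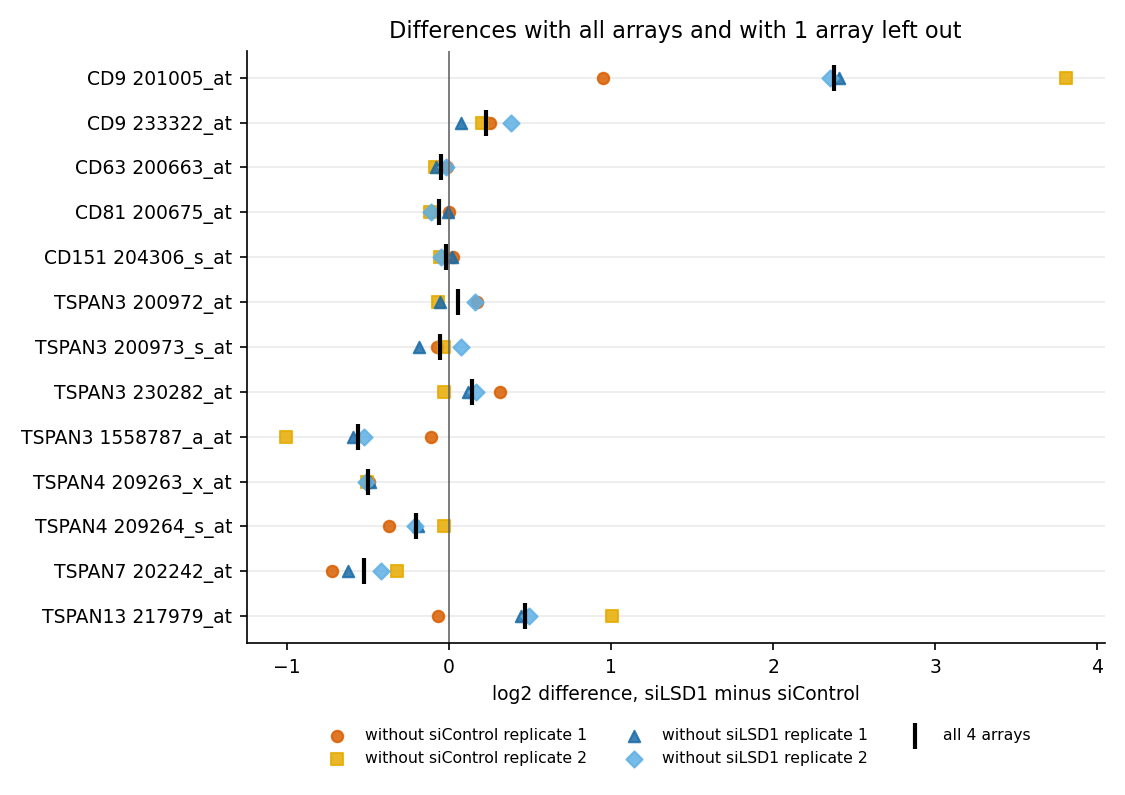
Log2 difference, siLSD1 minus siControl (horizontal axis), of the 13 member probe sets that passed the filter, with all 4 arrays (black bars) and with each array left out (coloured points). CD9 201005_at runs from 0.95 to 3.81, TSPAN13 crosses 0 without siControl replicate 1, and the points of TSPAN4 209263_x_at stay together near -0.50.

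Across the 13 probe sets that passed the filter, from 8 of the 9 genes, siLSD1 had the higher mean in 5 and the lower in 8, with a median difference of -0.05 against -0.0042 over all probe sets tested. Both siLSD1 arrays lay above both siControl arrays for 2 of the 13, against 16.1% of all probe sets tested, and below them for 4, against 16.1%. The 4 were TSPAN3 1558787_a_at, both of TSPAN4 and TSPAN7. These counts depend on the scaling. On the deposited scale the groups overlapped for TSPAN4 209264_s_at, and for CD9 233322_at, which is counted among those above. The TSPAN3 probe set passed the filter only through siControl replicate 1, at 4.38, and lay below the filter level on the other arrays. Since the genes were chosen with this contrast known, nothing is read from these counts. In limma 0 of the 24655 probe sets passed an adjusted p of 0.05 (0%), and so 0 of the 13. At an unadjusted p under 0.05, 459 were higher and 362 lower, 3.33% of all. KDM1A, the siRNA target, did not pass either, with an adjusted p of 0.9936 in limma. The 95% interval of a difference had a median half-width of 0.72 in limma, or 1.65-fold, which is wider than the differences seen in TSPAN4 and TSPAN7. Leaving out 1 array turned the sign in 6 of the 13, which were CD81, CD151, 3 probe sets of TSPAN3 and TSPAN13, and the median of the 13 ran from -0.058 to -0.015. Under median centring the median of all probe sets tested was itself 0.16, and 9 of the 13 were then above 0. Relative to that median, 6 were above and 7 below, against 5 and 8 after quantile normalization, and CD9 (2.32), TSPAN4 209263_x_at (-0.44) and TSPAN7 (-0.45) kept their sides.

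The rest of the family was compared in the same limma fit. Of 24 further tetraspanin genes, 23 had probe sets and 15 had at least 1 of 25 that passed the filter. Of these 25, 0 passed an adjusted p of 0.05, the siLSD1 mean was above that of siControl for 14 and below it for 11, and the median difference was 0.03. Leaving out siControl replicate 1 gave 0.15, and the median turned to -0.073 without siLSD1 replicate 1, to -0.045 without siControl replicate 2, to -0.066 without a filter and to -0.068 with the mean per gene. Both siLSD1 arrays were above both siControl arrays for 5 of the 25, against 16.1% of all probe sets tested, and below for 5, also against 16.1%. TSPAN9 was at 5.67 and 6.69 in siControl and at 6.95 and 6.95 in siLSD1 (220968_s_at), again with siControl replicate 1 the lowest. The difference of 0.77 was 0.27 without that array. In its other probe set that passed the filter, 205665_at, siControl replicate 1 was the highest. There the groups overlapped, with a difference of 0.11. TSPAN18 was at 7.77 and 8.35, then 8.51 and 8.62 (227307_at). Its difference of 0.51 was 0.22 without siControl replicate 1. TSPAN2, a tetraspanin of oligodendrocytes and neurons, was at 6.73 and 6.65, then 6.23 and 6.27 (227236_at), a difference of -0.44 with close replicates, and its other probe set that passed the filter was lower too. CD53, a tetraspanin of leukocytes, was at 4.26 and 2.59, then 4.23 and 4.57, with overlapping groups. With each gene taken by its brightest probe set, these 4 genes had the smallest p of the list, with an adjusted p of 0.9936 each in limma. TSPAN31, named after its values were seen, held the list's smallest p at its dimmer probe set, 203226_s_at, which was at 7.58 and 7.95, then 7.30 and 6.97, a difference of -0.63. Its brighter probe set, 203227_s_at, had a difference of -0.07. Of the 25, 6 had their lowest value on siControl replicate 1, as did 2 of the 13 member probe sets, against 27.7% of all probe sets tested.

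Proteins that tetraspanins bind were followed by 46 probe sets of 21 genes. None passed the adjusted threshold in limma, 28 means were above and 18 below those of siControl, and the median difference was 0.07, from 0.082 to 0.12 without 1 array and -0.083 with the mean per gene. Both siLSD1 arrays were above both siControl arrays for 12 of the 46, against 16.1% of all probe sets tested, and below for 2, also against 16.1%. Several of the 46 belong to the same gene. With each gene taken by its brightest probe set, those with the smallest p were integrin subunits, a receptor and an immunoglobulin-type protein. ITGAV, the integrin subunit alpha V, was at 8.67 and 8.74 in siControl and at 9.10 and 9.41 in siLSD1, a difference of 0.55. EGFR, the epidermal growth factor receptor, was at 7.25 and 7.58, then 8.24 and 7.89 (201983_s_at), a difference of 0.65. All 5 of its probe sets that passed the filter had a higher mean. The groups overlapped in 201984_s_at (0.07), 224999_at (0.07), 211551_at (0.035) and 1565484_x_at (1.38). The last had a siControl mean of 3.14, below the filter level, and a difference of -0.12 without siControl replicate 1. Below the filter level, 210984_x_at (-0.57) and 211550_at (-0.13) were lower, and 211607_x_at (1.86) and 1565483_at (0.63) were higher. ITGA4, the integrin subunit alpha 4, was at 5.07 and 5.34, then 6.11 and 5.70 (213416_at), a difference of 0.70, and all 3 of its probe sets that passed the filter had a higher mean, while 205885_s_at, below the filter level, was lower (-0.82). IGSF3 was at 8.33 and 8.38, then 8.66 and 8.83 (202421_at), a difference of 0.39, but 2 of its 4 probe sets that passed were lower. The adjusted p was 0.9936 for each in limma. Among the brightest probe sets of these 4 genes the difference without siControl replicate 1 lay between 0.37 and 0.56. ITGB1, the integrin beta subunit most often found with tetraspanins, was at 11.21 and 11.23, then 11.23 and 11.34 by its brightest probe set (211945_s_at); it was named after its values were seen. So was PRKCA, a protein kinase C, whose dim probe set 1560074_at had the widest difference of the 46, -2.37, at 4.48 and 5.39 in siControl and at 1.29 and 3.85 in siLSD1, the first of these below the filter level. Its brightest probe set, 213093_at, had a difference of 0.18 and overlapping groups.

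Genes of vesicle sorting and release, the route by which CD9, CD63 and CD81 leave the cell, had 34 probe sets of 14 genes that passed the filter. In limma 0 passed the adjusted threshold, 14 means were above and 20 below those of siControl, and the median difference was -0.01, which turned to 0.029 without siControl replicate 1. LAMP1, a glycoprotein of lysosomes, was at 10.64 and 10.47 in siControl and at 10.71 and 10.73 in siLSD1 (201553_s_at), a difference of 0.17, but 3 of its 4 probe sets that passed the filter were lower. RAB27B, a small GTPase of vesicle release, had a difference of -0.25, VPS4B, an ATPase that acts on membrane-cutting complexes, of 0.12 and the raft protein FLOT2 of -0.12, with overlapping groups in all 3. These 4 genes had the smallest p by their brightest probe sets, with an adjusted p of 0.9936 in limma.

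**Figure D4:**
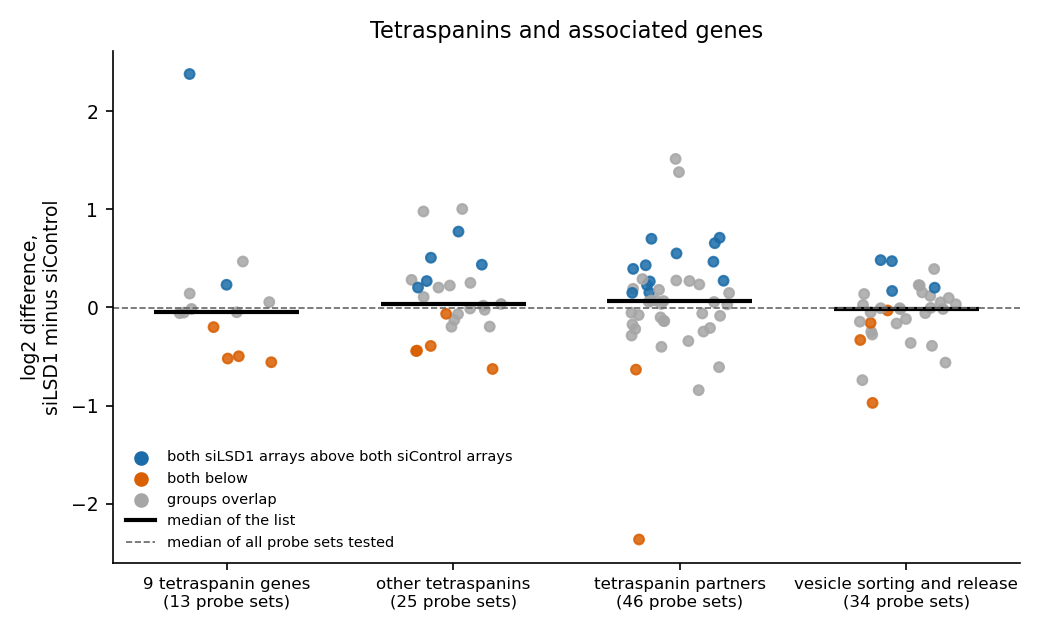
Log2 differences, siLSD1 minus siControl (vertical axis), of the probe sets that passed the filter in each list; points are probe sets, coloured by whether the groups overlap, black bars are list medians and the dashed line is the median of all probe sets tested. CD9 201005_at, of the gene by which the set was picked, lies far above the other tetraspanins at 2.38, and had 0.95 without siControl replicate 1. The list medians run from -0.05 to 0.07.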

How the data were processed

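The authors deposited 1 log2 value per probe set and array, for 54675 probe sets. The log base was found from the values: base-2 antilogs had the same mean, 100.0, on each array after the outer 2% at each end were left out. No source used here gives the summary method or software. Groups and replicate numbers came from the sample titles, and that of siLSD1 replicate 2 names its target as LSD without a number. Deposited medians differed by up to 0.27, so the arrays were quantile normalized without the 62 control probe sets. The 41091 probe sets with 1 symbol in the platform annotation of GEO were kept, and the 24655 whose mean was at or above the 40th percentile (3.62) were tested in R 4.3.3 with limma 3.58.1 (lmFit, eBayes with a trend, two-sided, Benjamini-Hochberg, threshold 0.05). The fit was tested on simulated data. The number of arrays limits the precision, and an exact permutation test of 2 against 2 arrays cannot go below p = 0.333. Every p-value rests on the spread among transfections of 1 line.

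The members and gene lists were chosen with earlier results of these data known. Named were KDM1A, every member, up to 4 genes per other list with the smallest unadjusted p at their brightest probe set (for marker lists, the highest mean) and the 3 genes nearest to CD9. Alternatives were other scalings, no filter, no trend, 1 value per gene, no shared-probe types, a replicate block and leaving out each array.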

Additional observations from a re-analysis of the deposited data

How the results depend on the processing

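In limma 0 probe sets passed the adjusted threshold under the deposited scaling, median centring, no filter, no trend, 1 probe set or the mean per gene, and without shared-probe types. Leaving out 1 array gave 0 to 5 calls, the 5 without siControl replicate 2 and 2 without siLSD1 replicate 1, with 0 members among them. With the replicate block there were also 0 calls, and 987 in place of 821 probe sets at an unadjusted p under 0.05. Arrays with the same number did not deviate from their group means together (r = -0.07 across 24655 probe sets, which are not independent), although the BioB spike levels were alike by number. The CD9 difference ran from 0.95 to 3.81 when 1 array was left out. The number of higher member probe sets, 5 of 13, was 9 of 13 under median centring, 8 of 17 without a filter, 3 of 8 with the brightest probe set per gene, 2 of 8 with the mean per gene and 3 to 6 without 1 array. The member median of -0.05 was 0.092 under median centring, 0.054 without shared-probe types and -0.058 to -0.015 without 1 array. The other tetraspanins (0.03) were at 0.21 under median centring, -0.066 without a filter, -0.068 with the mean per gene and -0.073 to 0.15 without 1 array. The partners (0.07) were at 0.22 under median centring, 0.25 with the brightest probe set, -0.083 with the mean per gene, 0.15 without shared-probe types and 0.082 to 0.12 without 1 array. Vesicle genes (-0.01) were at 0.16 under median centring and -0.046 to 0.029 without 1 array. Median centring moved the median of all probe sets tested from -0.0042 to 0.16. Other causes were not tested.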
